A study of Rattus norvegicus with 36 samples.

Results

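The aortic microRNAs of S2Bb rats were compared with those of the parental SS strain while both were fed a normal-salt diet. The comparison took every library of these strain and diet groups that could be placed, 6 of S2Bb and 5 of SS, which is 11 of the 34 libraries with a column in the table. SS is the Dahl salt-sensitive rat, an inbred strain whose blood pressure climbs on a high-salt diet. S2Bb is a congenic strain on that background in which the middle part of chromosome 2 comes from the Brown Norway (BN) rat. S2Ba, used below for reference, carries the distal BN part of the same chromosome. All animals were male, began their diet at 4 to 6 weeks of age and were kept on it until 12 to 13 weeks, with 4% NaCl in the high-salt diet. Small RNAs came from a piece of the thoracic descending aorta, 1 animal per library. The sources used here do not state the bounds of the BN segments. A congenic segment holds many genes, so the strain difference cannot be assigned to any 1 of them.

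A microRNA is cut from the stem of a hairpin transcript. Its 5p or 3p arm is loaded into an Argonaute protein and pairs through its seed, the bases near its 5′ end, with sites in messenger RNAs that are then repressed. Several microRNA genes lie inside the Hox clusters, the homeobox gene arrays that set position along the body axis, and are expressed together with their neighbours there. Vascular smooth muscle, the bulk of the aortic wall, is marked by the miR-143 and miR-145 pair, which keeps the cells in their contractile state.

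The microRNAs on which the comparison turned are shown first, with the seed (bases 2 to 8) in capitals. The sequences and positions are those of RefSeq on the rat assembly GRCr8. Relatives are set together because they differ from each other by 1 or 2 bases, so that reads can be shared between them, and the sources used here do not say how such reads were assigned.
miR-196b-5p: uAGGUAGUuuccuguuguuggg
miR-196a-5p: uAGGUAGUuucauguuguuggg
miR-10b-5p: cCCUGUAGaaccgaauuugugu
miR-10a-5p: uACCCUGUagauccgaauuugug
miR-204-5p: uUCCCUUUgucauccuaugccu
miR-211-5p: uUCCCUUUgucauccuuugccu
let-7c-5p: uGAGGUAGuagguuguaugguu
let-7e-5p: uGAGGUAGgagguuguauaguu
miR-186-5p: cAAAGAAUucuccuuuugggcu

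miR-196b and miR-196a have the same seed and differ by C12A, counted from 1 at the 5′ end of miR-196b. The gene of miR-196b lies at chr4:82661149-82661170 on the minus strand, 1034 bp from Hoxa10, and that of miR-196a at chr7:135988900-135988921 on the plus strand, 1458 bp from Hoxc10. miR-10b lies inside Hoxd4 at chr3:80035886-80035907 and miR-10a 1338 bp from Hoxb4 at chr10:81779730-81779752, both on the plus strand. RefSeq starts miR-10b-5p 2 bases further in than miR-10a-5p, so the annotated seeds differ although the 21 aligned bases differ only by U12A, counted on miR-10a-5p. miR-204 lies inside Trpm3 at chr1:229743493-229743514 and miR-211 inside Trpm1 at chr1:127189353-127189374, both on the plus strand. They share a seed and differ by A17U, counted on miR-204. let-7c and let-7e share the let-7 seed and differ by U9G and G19A, counted on let-7c. Of these 9 microRNAs only miR-186-5p, inside Zranb2 at chr2:249241664-249241685 on the plus strand, is encoded on chromosome 2.

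The S2Bb libraries were deeper than the SS libraries, with 27.2 ± 8.52 M reads (SD, n = 6; range 16.3 to 42.4) against 14.4 ± 4.57 M reads (SD, n = 5; range 6.56 to 17.9). SS replicate 6 was the shallowest. The SS libraries also varied more, with a median SD over microRNAs of 0.44 on the log2 scale against 0.30 in S2Bb. The smooth muscle microRNA miR-143-3p took 46.8 to 55.1% of the reads in SS and 50.2 to 60.0% in S2Bb. Liver miR-122-5p and neuronal miR-124-3p were near 0 in all 11 libraries, with at most 0.194 and 0.634 nRPM, while other members of these lists were not, such as miR-192-5p at up to 772 nRPM and miR-9a-5p at up to 40.4 nRPM. The name nRPM, for normalized reads per M reads (M, mega), is used here for the deposited signal. The unit was read from the values, and the sources used here do not state how the signal was normalized. SS replicate 1 is absent because its values are identical to those of an S2Ba library. On normal salt the animal numbers in the titles of all 6 S2Bb animals lie below those of the 5 SS animals, so an effect of number order and an effect of strain cannot be told apart. The main limma p-values rest on a spread between animals that was pooled over all 6 groups of the series, not on these 11 animals alone. The labels name no batch or litter. They also give no replicate numbers, and those used here were assigned to the samples of each group in their listed order.

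Of 484 microRNAs tested, 4 differed between the strains, or 0.826%, with 1 higher (0.207%) and 3 lower (0.62%) in S2Bb. All 3 that were lower are encoded in Hox clusters: miR-196b-5p, miR-196a-5p and miR-10b-5p. However, miR-196a-5p was abundant enough to be tested only because of its SS values on normal salt, where it was high. The one that was higher was miR-204-5p, a microRNA from within the ion channel gene Trpm3 that is known to restrain bone-like programmes in smooth muscle. The test was limma on log2(nRPM + 1) with Benjamini-Hochberg adjustment over all 484, in a model of all 32 libraries, and differences below are S2Bb minus SS on that scale. When only the 11 libraries of the comparison were fitted, no microRNA passed the threshold, the 4 had adjusted p-values from limma of 0.254 to 0.295, and 43 had an unadjusted p under 0.05. In the full fit 53 microRNAs (11%) had an unadjusted p under 0.05, 26 higher (5.37%) and 27 lower (5.58%) in S2Bb.

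**Figure D1:**
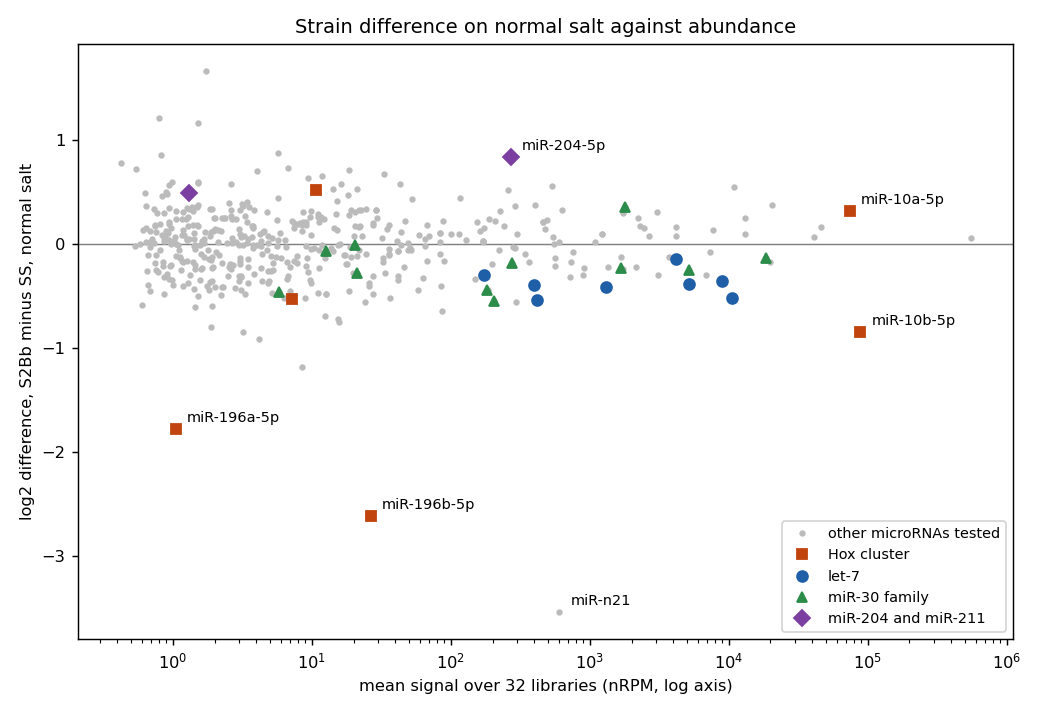
Log2 difference between S2Bb and SS on normal salt for each of the 484 microRNAs tested (vertical axis) against its mean signal over 32 libraries in nRPM (horizontal axis, log scale), with 4 groups of microRNAs coloured. The 3 lowest coloured squares are miR-196b-5p, miR-196a-5p and miR-10b-5p, while miR-10a-5p lies above 0, and miR-n21 has the largest difference without passing the limma test.

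miR-196b-5p had the largest difference of the 4. The miR-196 family is known to direct cleavage of the Hoxb8 messenger RNA in mouse embryos. In SS replicates 2 to 6 miR-196b-5p measured 210, 9.89, 71.4, 22.9 and 118 nRPM. In S2Bb replicates 1 to 6 it measured 7.41, 4.63, 11.2, 7.24, 10.4 and 7.99 nRPM. The S2Bb animals lay close together at the bottom of the range, SS replicate 3 fell among them, and the other 4 SS animals were above every S2Bb animal. The means were 86.5 ± 81.3 (SD, n = 5) and 8.14 ± 2.37 nRPM (SD, n = 6). The log2 difference was -2.62 ± 0.51 (SE; adjusted p = 0.00597, limma). In fits that left out 1 of the 11 libraries it stayed between -3.20 and -2.13, and it was called in all of them.

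miR-196a-5p was far rarer and is best read in recovered reads. SS replicates 2 to 6 held 121, 0, 49, 12 and 42 reads of it. S2Bb replicates 1 to 6 held 3, 0, 4, 0, 0 and 3 reads, although they were sequenced more deeply. SS replicate 3 was again the animal that fell among the S2Bb animals, and the SS animals took the same order from high to low, replicates 2, 6, 4, 5 and 3, for both miR-196 members. In nRPM the means were 4.27 ± 4.52 (SD, n = 5) and 0.0622 ± 0.0750 (SD, n = 6). A count of 0 allows up to 0.194 nRPM in SS replicate 3 and 0.119 to 0.212 nRPM in the S2Bb libraries at 0, the value of 3 reads (counting error only). The log2 difference was -1.79 ± 0.40 (SE; adjusted p = 0.0260, limma), a size that depends on the added 1 because S2Bb lies near the floor. The call was lost when SS replicate 2, 4 or 6 or S2Bb replicate 1 or 2 was left out, with adjusted p from limma of up to 0.112, with an added 0.1 in place of 1, with no filter on low values and with log2 depth as a covariate. miR-196a-5p reached 1 nRPM in 7 libraries, 3 of them SS on normal salt, and would not have met the filter of 5 libraries without that group, in which it was high. Another member with this seed, miR-196c-5p, differs from miR-196b by C12G. It had 0 to 8 reads per library and was too rare to be tested.

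miR-10b-5p was the most abundant of the 4 and the second most abundant microRNA of the SS aorta after miR-143-3p. SS replicates 2 to 6 measured 213598, 129083, 123007, 88680 and 155007 nRPM. S2Bb replicates 1 to 6 measured 63268, 63209, 94925, 84071, 93799 and 61633 nRPM. The groups met only at their edges, where SS replicate 5 lay below S2Bb replicates 3 and 5. As a share of reads, miR-10b-5p made up 12.6 ± 3.28% in SS (SD, n = 5) and 7.03 ± 1.19% in S2Bb (SD, n = 6). The log2 difference was -0.85 ± 0.20 (SE; adjusted p = 0.0284, limma). The call was lost when SS replicate 2, 4 or 6 or S2Bb replicate 1, 2 or 6 was left out, with limma differences of -0.89 to -0.69 and adjusted p of 0.0630 to 0.112. It was also lost with TMM or RLE factors, with no filter, with log2 depth as a covariate and when the column with 2 labels was counted as SS.

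**Figure D2:**
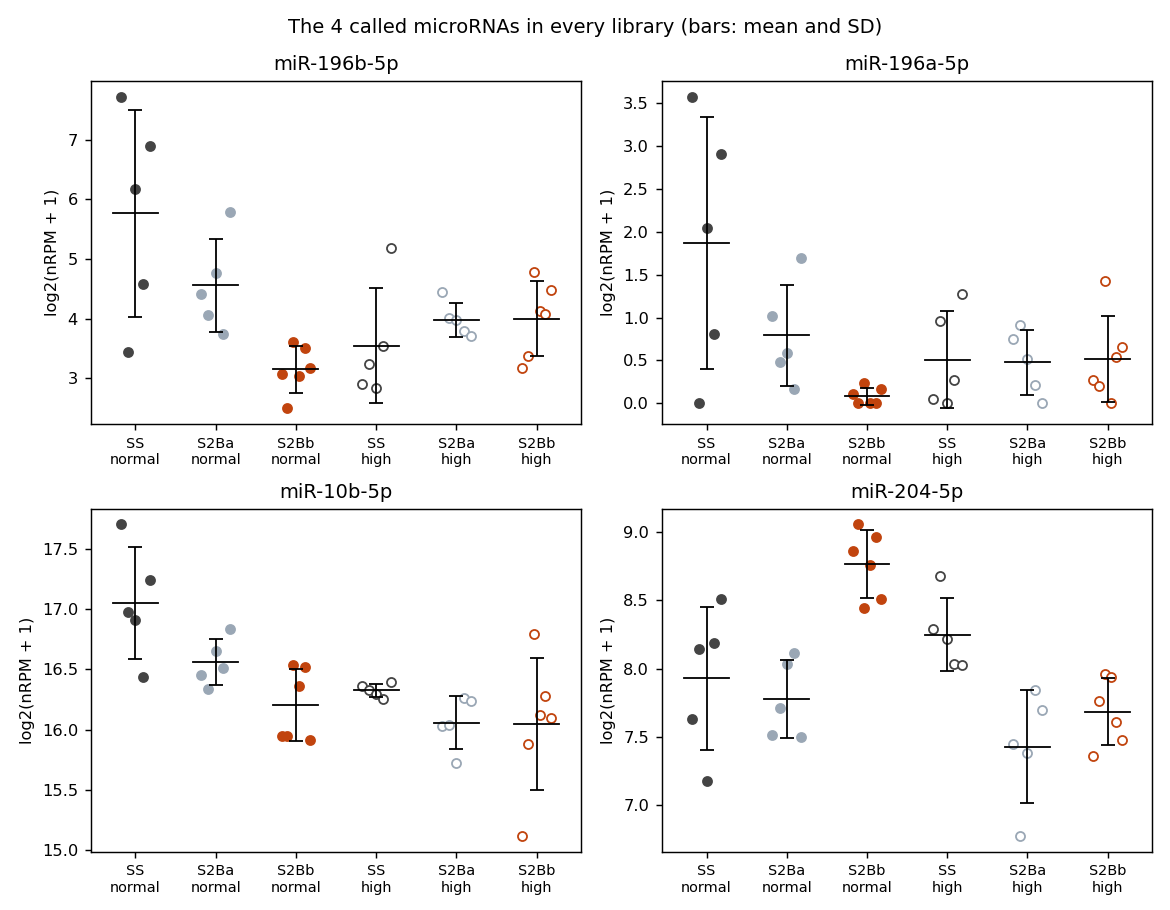
Each panel shows 1 of the 4 called microRNAs as log2(nRPM + 1) in every library (points) of the 3 strains on normal salt (filled) and high salt (open), with the mean and SD of each group. By its mean on normal salt S2Bb is lowest for miR-196b-5p, miR-196a-5p and miR-10b-5p and highest for miR-204-5p, and SS spreads most widely for both miR-196 members.

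The other miR-10 products did not pass the adjusted threshold in limma, although DESeq2 called miR-10a-3p, and the sister gene pointed the other way. miR-10a-5p averaged 75047 ± 13747 nRPM in SS (SD, n = 5) and 93180 ± 14887 nRPM in S2Bb (SD, n = 6), a log2 difference of 0.32 ± 0.15 (SE; adjusted p = 0.412, limma). The rare 3p arms had differences of the same signs as their 5p partners, 0.52 ± 0.18 for miR-10a-3p (adjusted p = 0.187, limma) and -0.53 ± 0.21 for miR-10b-3p (adjusted p = 0.296, limma). All 6 tested members of the Hox list had an unadjusted p under 0.05, 2 higher and 4 lower in S2Bb, of 11 names listed, and 3 of them were called, against 11% and 0.826% of all 484 tested. The list includes miR-196a-5p, tested only because of its SS values. The members were named with these results known, so the count is a description. Their median log2 difference was -0.69, against 0.01 over all tested.

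Because miR-10a and miR-10b come from the same libraries, their ratio within a library does not depend on the scaling of that library. The 5p ratio of miR-10b to miR-10a was 2.82, 1.35, 1.63, 1.25 and 2.70 in SS replicates 2 to 6. In S2Bb replicates 1 to 6 it was 0.828, 0.609, 0.951, 0.950, 0.829 and 0.796. Every SS library thus held more signal of miR-10b-5p than of miR-10a-5p, every S2Bb library held less, and the groups did not overlap. Whether the signals of the 2 sequences give their relative amounts in the tissue was not tested. The 3p ratio was 0.536 to 1.32 in SS and 0.265 to 0.522 in S2Bb, also without overlap. S2Ba on normal salt lay between with a 5p ratio of 1.45 ± 0.358 (SD, n = 5), and on high salt the means were 1.09 in SS, 1.08 in S2Ba and 1.06 in S2Bb. The ratio was chosen after these values were seen, so it is given without a test. The library found under both an SS and an S2Ba label had a 5p ratio of 1.30.

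**Figure D3:**
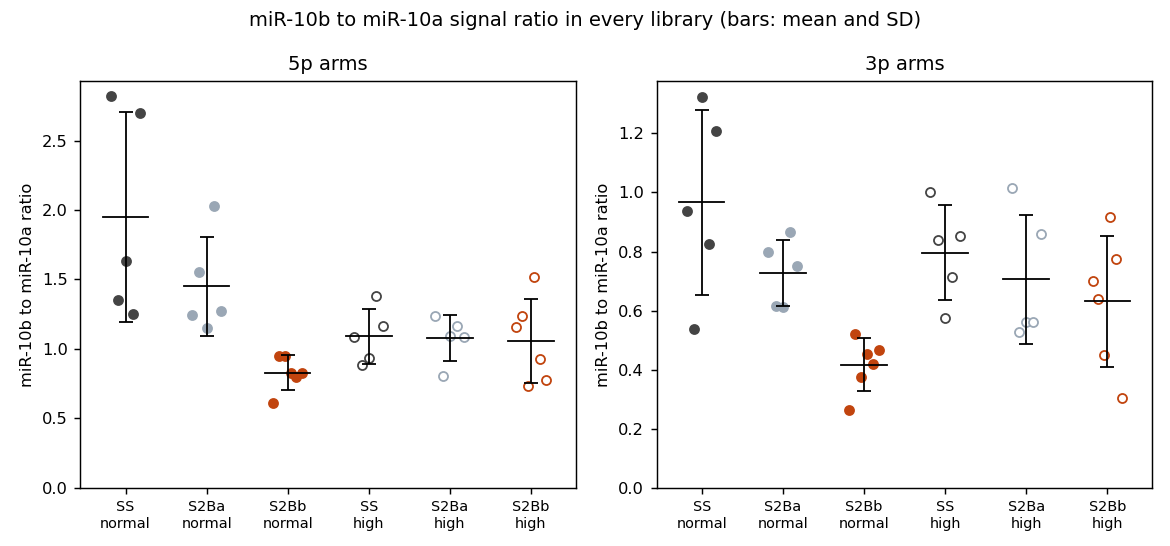
Ratio of miR-10b to miR-10a signal in every library (points) with the mean and SD of each group, for the 5p arms (left) and the 3p arms (right), filled for normal salt and open for high salt. In both panels every S2Bb animal on normal salt lies below every SS animal on normal salt, while the groups on high salt overlap.

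miR-204-5p was the 1 microRNA called higher in S2Bb. SS replicates 2 to 6 measured 197, 281, 144, 290 and 362.1 nRPM. S2Bb replicates 1 to 6 measured 463, 530, 346, 432, 498 and 362.4 nRPM. Most S2Bb animals lay above all SS animals, and only S2Bb replicate 3 fell below the highest SS animal. The means were 255 ± 85.4 (SD, n = 5) and 439 ± 73.4 nRPM (SD, n = 6), and the log2 difference was 0.84 ± 0.20 (SE; adjusted p = 0.0284, limma). The call was lost when SS replicate 2 or 4 or S2Bb replicate 1, 2, 4 or 5 was left out, with limma differences of 0.65 to 0.84 and adjusted p of 0.0576 to 0.124. It was also lost under total-read scaling and with no filter.

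Its seed relative miR-211-5p was rare, with 7 to 32 reads in the SS libraries and 31 to 86 in the S2Bb libraries. It averaged 1.35 ± 0.541 nRPM in SS (SD, n = 5) and 2.22 ± 0.235 nRPM in S2Bb (SD, n = 6). The log2 difference of 0.48 ± 0.16 (SE) had the sign of that of miR-204-5p but did not pass the adjusted threshold (adjusted p = 0.159, limma). The ratio of miR-204-5p to miR-211-5p was 207 ± 85.4 in SS (SD, n = 5) and 197 ± 23.9 in S2Bb (SD, n = 6). Since the pair differs by 1 base, misassigned reads of the abundant member would also give counts of the rare one, and this was not tested. The other arm, miR-204-3p, was at 0 in all 5 SS libraries and at 0 to 0.279 nRPM in S2Bb, too rare to be tested.

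An exact two-sided permutation test over the 11 libraries was run for each of the 4 calls. With 462 ways to split them, the smallest p possible is 0.00433. The exact p was 0.0130 for miR-196b-5p, 0.0303 for miR-196a-5p, 0.0130 for miR-10b-5p and 0.00866 for miR-204-5p. Adjusted over the 4 by Benjamini-Hochberg these exact permutation values were 0.0173, 0.0303, 0.0173 and 0.0173. Adjusting over the 4 does not correct for their choice from all the microRNAs tested. All these exact values rest on the libraries that chose the calls and are not separate evidence. miR-196a-5p was tested only because of its SS values on normal salt, where it was high. Its exact p is therefore not a valid test of a strain difference, and nothing is concluded from it.

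The same strain contrast was measured on high salt in other animals, 6 of S2Bb and 5 of SS. There limma called none of the 484 microRNAs (0%), with 56 (11.6%) at an unadjusted p under 0.05, and edgeR and DESeq2 on recovered reads also called none. limma-voom with sample weights called 3. SS high-salt replicate 2 held only 2.31 M reads, 31.7% of them miR-143-3p, and had 338 of 835 names at 0. It and SS normal-salt replicate 6 are the 2 shallowest libraries analysed. Without SS high-salt replicate 2 limma also called none, with 32 at an unadjusted p under 0.05. miR-196b-5p averaged 13.4 ± 12.4 nRPM in SS (SD, n = 5) and 16.3 ± 7.08 nRPM in S2Bb (SD, n = 6), and the log2 difference was 0.46 ± 0.51 (SE). miR-10b-5p differed by -0.28 ± 0.20 and miR-196a-5p by 0.01 ± 0.40 on the log2 scale (SE). miR-204-5p had the opposite order from normal salt, 307 ± 60.5 nRPM in SS (SD, n = 5) against 207 ± 34.8 nRPM in S2Bb (SD, n = 6). On high salt its S2Bb libraries ran from 164 to 248 nRPM and its SS libraries from 259 to 407 nRPM, without overlap, as held for 6 of the 484 (1.24%), but the log2 difference of -0.56 ± 0.20 (SE) did not pass the adjusted threshold (adjusted p = 0.300, limma).

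Whether the strain difference itself changed with diet was tested as an interaction, normal minus high salt, and limma called 2 of 484 (0.413%). In SS the animal numbers of all high-salt animals lie above those of all normal-salt animals. An effect of diet and an effect of number order therefore cannot be told apart in SS. In S2Bb the high-salt numbers lie on both sides of the normal-salt numbers. For miR-204-5p the difference of differences was 1.40 ± 0.28 (SE; adjusted p = 0.0130, limma), and it was called under all 37 alternative settings tried. For miR-196b-5p it was -3.07 ± 0.71 (SE; adjusted p = 0.0369, limma), and it was called under 16 of those 37. Its call was lost without SS replicate 2, 4 or 6 or S2Bb replicate 1, 2, 4 or 6 on normal salt. It was also lost without SS replicate 1, 2, 4 or 5 or S2Bb replicate 2, 3, 5 or 6 on high salt. For miR-196a-5p (-1.79 ± 0.57 SE; adjusted p = 0.230) and miR-10b-5p (-0.57 ± 0.29 SE; adjusted p = 0.488) the limma interaction did not pass the threshold, so no change with diet was shown for them.

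**Figure D4:**
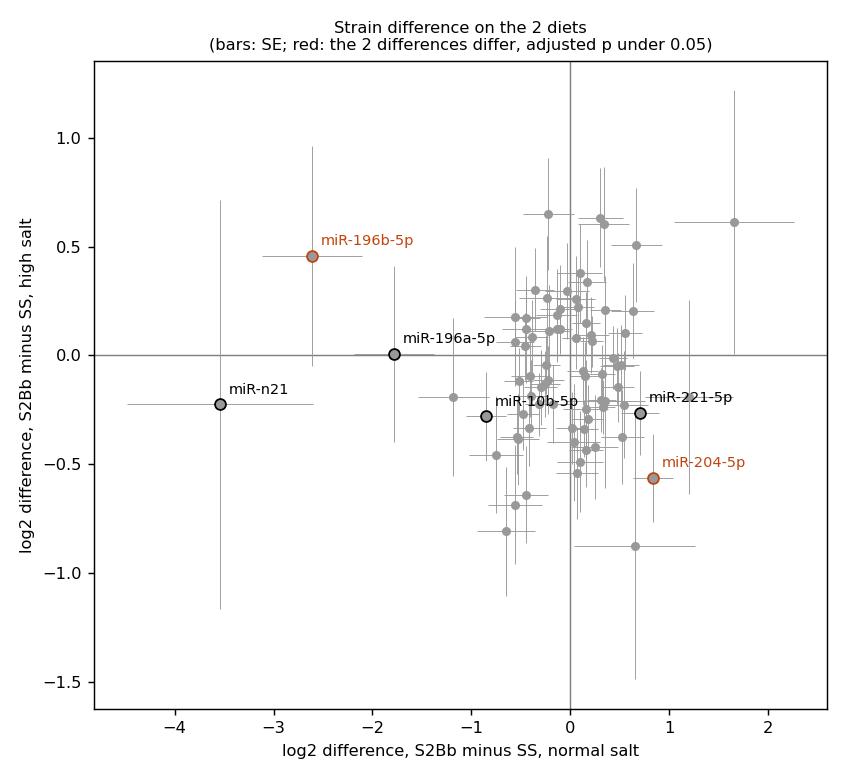
Log2 difference between S2Bb and SS on normal salt (horizontal) and on high salt (vertical) for the named microRNAs that were tested, with SE bars. miR-204-5p lies to the lower right, above 0 on normal salt and below 0 on high salt, and miR-196b-5p lies to the far left at 0.46 on the vertical axis, and these 2, in red, are those whose difference between diets was called.

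S2Bb on normal salt was also set against S2Ba on normal salt, a comparison that shares the S2Bb libraries. There limma called 17 of 484 (3.51%), 10 higher (2.07%) and 7 lower (1.45%) in S2Bb, and 78 (16.1%) had an unadjusted p under 0.05. The split depended on the scaling, with 3 higher and 10 lower under total-read scaling, 10 higher and 18 lower with TMM factors, and 9 higher and 8 lower with RLE factors. The median of all 484 was 0.05 in this comparison and -0.09 under total-read scaling. miR-204-5p averaged 222 ± 44.5 nRPM in S2Ba (SD, n = 5), and S2Bb was higher by 0.99 ± 0.20 on the log2 scale (SE; adjusted p = 0.00264, limma). miR-211-5p was higher by 0.61 ± 0.16 (SE; adjusted p = 0.0249, limma). S2Ba carried 25.7 ± 16.6 nRPM of miR-196b-5p (SD, n = 5), between SS and S2Bb, and the log2 difference of S2Bb from S2Ba was -1.41 ± 0.51 (SE; adjusted p = 0.110, limma). miR-10b-5p differed by -0.35 ± 0.20 and miR-196a-5p by -0.71 ± 0.40 from S2Ba (SE), neither called by limma.

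Below the 4 calls, the smallest p-values among microRNAs with a miRBase name and a mean of at least 10 nRPM belonged to miR-221-5p and let-7c-5p. miR-221-5p, the minor arm of a microRNA known to promote smooth muscle proliferation, measured 17.2, 20.3, 14.7, 20.96 and 8.35 nRPM in SS replicates 2 to 6. It measured 27.2, 33.9, 25.4, 21.3, 29.2 and 21.1 nRPM in S2Bb replicates 1 to 6. Every S2Bb value lay above every SS value, by a narrow margin, but the log2 difference of 0.70 ± 0.19 (SE) did not pass the adjusted threshold (adjusted p = 0.0754, limma). The major arm miR-221-3p and its neighbour miR-222-3p differed by 0.13 ± 0.16 and 0.18 ± 0.16 (SE).

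Of all 484 microRNAs, 5 (1.03%) did not overlap between the strains, 3 higher and 2 lower in S2Bb, and none of these is among the 4 calls. Besides miR-221-5p they were miR-143-5p, miR-31a-3p, miR-193-5p and miR-664-2-5p, of which the last 2 were chosen after their values were seen. miR-143-5p, the minor arm of the smooth muscle microRNA, ran from 42.2 to 52.5 nRPM in SS and from 55.3 to 79.9 nRPM in S2Bb. miR-31a-3p ran from 6.34 to 9.51 nRPM in SS and from 11.9 to 18.7 nRPM in S2Bb. Their log2 differences were 0.43 ± 0.14 (SE; adjusted p = 0.159) and 0.63 ± 0.22 (SE; adjusted p = 0.174) in limma, neither called. The major arms, miR-143-3p and miR-31a-5p, differed by 0.06 ± 0.20 and 0.15 ± 0.13 (SE). On the lower side, miR-193-5p had means of 1.71 nRPM in SS and 1.03 nRPM in S2Bb, and miR-664-2-5p of 3.39 and 2.16 nRPM.

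let-7, which restrains growth programmes and is held back by Lin28 in early development, had negative differences in S2Bb against SS without a call by limma. let-7c-5p, its most abundant member, measured 16686, 10599, 15247, 12637 and 19942 nRPM in SS replicates 2 to 6 and 9110 to 12483 nRPM in S2Bb. Its log2 difference was -0.52 ± 0.15 (SE; adjusted p = 0.0928, limma), and the groups overlapped because S2Bb replicates 2 and 4 lay above SS replicate 3. It was called under 3 of 27 alternatives, DESeq2, a mean of at least 10 nRPM and without SS replicate 3, and let-7f-5p was called with log2 depth as a covariate. All 8 tested members of 9 listed had a negative log2 difference, against 48.8% of all tested below 0 and 51.2% above. All 8 were also below 0 under scaling by total reads, TMM and RLE factors, under which 217, 220 and 230 of all 484 were below 0. Of these, 5 had an unadjusted p under 0.05 (let-7a, let-7b, let-7c, let-7d and let-7e), against 5.58% lower among all tested. The median was -0.39. These members share their seed and differ by few bases, so they are not independent. On high salt their median was -0.07. For S2Bb against S2Ba on normal salt it was 0.10, so S2Bb was not lower than S2Ba by this median. let-7c-5p ran from 8465 to 11320 nRPM in S2Ba on normal salt.

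The miR-30 family, broadly expressed and known to target fibrosis-related genes, had 10 of 11 tested members below 0, and 9 under each of the 3 other scalings. Of these, 2 had an unadjusted p under 0.05, miR-30e-3p at -0.45 ± 0.14 (SE; adjusted p = 0.132, limma) and miR-30a-3p at -0.56 ± 0.19 (SE; adjusted p = 0.174, limma). The exception was miR-30e-5p, the major arm, at 0.36 ± 0.15 (SE; adjusted p = 0.356, limma), so the arms of miR-30e pointed in opposite directions. The imprinted Dlk1-Dio3 cluster, a large maternally expressed array, had 16 of 17 tested members below 0 (14 to 16 under the other scalings), of 48 names listed, with a median of -0.29. Within it only miR-541-5p had an unadjusted p under 0.05 (log2 difference -0.75 ± 0.27 SE; adjusted p = 0.202, limma). Of all 484 tested, 48.8% were below 0, and 5.58% were lower with an unadjusted p under 0.05. The 1 of 17 in the Dlk1-Dio3 cluster is near that share. Members of the same family or array are not independent. On high salt the median was 0.06 for the miR-30 family and -0.24 for the Dlk1-Dio3 cluster. For S2Bb against S2Ba on normal salt these medians were -0.37 and -0.14.

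In lists tied to vascular disease limma called no member, while miR-221-5p was called under 5 of 27 alternatives. Of 16 tested inflammation microRNAs, miR-221-5p and miR-31a-3p had an unadjusted p under 0.05, and the median was -0.02. miR-21-5p, induced in inflamed and remodelling vessels, averaged 2348 ± 706 nRPM in SS (SD, n = 5) and 2855 ± 852 nRPM in S2Bb (SD, n = 6), a log2 difference of 0.31 ± 0.23 (SE; adjusted p = 0.638, limma). Of 8 tested fibrosis microRNAs, 7 were above 0 with a median of 0.20. Of all 484 tested, 51.2% were above 0 and 11% had an unadjusted p under 0.05. In that list miR-199a-5p had a log2 difference of 0.33 ± 0.13 (SE; adjusted p = 0.249) and its cluster partner miR-214-3p one of -0.65 ± 0.30 (SE; adjusted p = 0.397) in limma. miR-210-3p, induced by hypoxia, averaged 24.8 ± 4.03 and 31.1 ± 2.79 nRPM, a log2 difference of 0.32 ± 0.14 (SE; adjusted p = 0.344, limma). miR-100-5p was the 1 member of 11 in the miR-99/100 and miR-125 list with an unadjusted p under 0.05, at 0.55 ± 0.25 (SE; adjusted p = 0.397, limma). In the miR-23/27/24 clusters it was miR-23a-3p, at -0.32 ± 0.14 (SE; adjusted p = 0.397, limma). The miR-26, miR-17-92 and X-linked miR-322 lists had no member with an unadjusted p under 0.05 and medians of 0.16, -0.05 and 0.00.

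**Figure D5:**
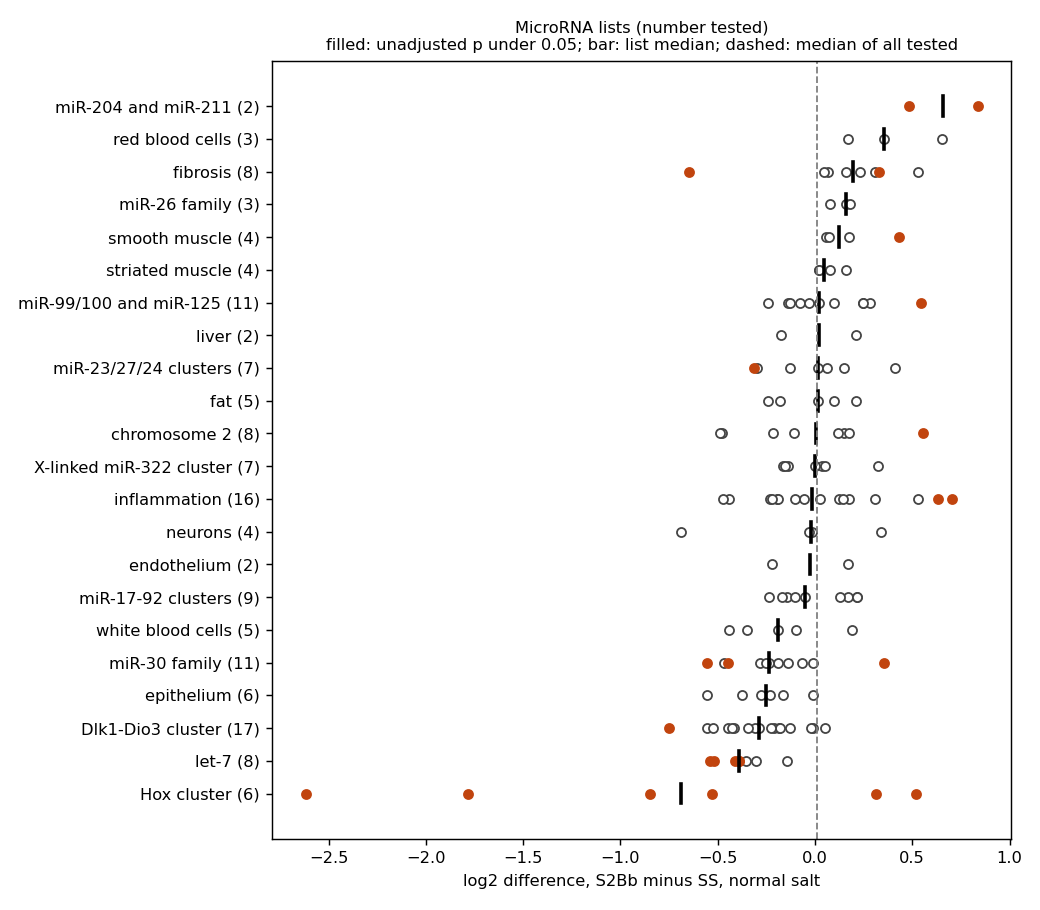
Log2 difference between S2Bb and SS on normal salt for each tested member of every list with at least 2 of them (points; filled where the unadjusted p is under 0.05), with the list median as a bar and the median of all 484 tested as a dashed line. Hox cluster and let-7 members sit lowest by median, and miR-204 and miR-211 highest.

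Of microRNAs whose every listed precursor lies on chromosome 2, the chromosome that carries the BN segment, 8 were tested. limma called none of them, against 0.826% of all 484 tested. Only 1 of the 8 had an unadjusted p under 0.05, near the 11% of all tested. The RefSeq table matched 248 of the 275 tested microRNAs with a miRBase name, so the list may not be complete, and the sources used here do not say which of the 8 lie inside the BN segment. The exception was miR-186-5p, which measured 388, 375, 283, 496 and 514 nRPM in SS replicates 2 to 6. It measured 481, 464, 433, 731, 701 and 863 nRPM in S2Bb replicates 1 to 6. S2Bb replicates 4 to 6 lay above every SS animal and the other 3 fell within the SS range. The log2 difference was 0.56 ± 0.17 (SE; adjusted p = 0.132, limma), and DESeq2 on recovered reads called it (adjusted p = 0.0258). The other 7 differed by -0.49 to 0.17 on the log2 scale. Among them miR-16-5p, the most abundant, averaged 2095 ± 412 nRPM in SS (SD, n = 5) and 2320 ± 433 nRPM in S2Bb (SD, n = 6), and its clustered partner miR-15b-5p averaged 9.50 and 7.72 nRPM. The median over the 8 was 0.01, that of all tested. The 4 called microRNAs are encoded on chromosomes 1, 3, 4 and 7.

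limma called no member of the cell type marker lists, DESeq2 called miR-143-5p (adjusted p = 0.0341), and the part of other cell types in the results above was not tested. In bulk tissue fewer cells of a type and less RNA per cell cannot be told apart. The summed smooth muscle signal ran from 483994 to 718198 nRPM in SS and from 509219 to 742576 nRPM in S2Bb, with 4 of 4 members above 0 and a median of 0.12. The summed endothelial signal ran from 1441 to 2757 nRPM in SS and from 1429 to 2691 nRPM in S2Bb. White blood cell markers summed to 194 to 481 nRPM in SS and 195 to 322 nRPM in S2Bb, with 4 of 5 tested members below 0 and a median of -0.19. Red blood cell markers summed to 4.26 to 14.1 nRPM in SS and 6.10 to 70.5 nRPM in S2Bb, where replicate 5 alone held 59.3 nRPM of miR-451-5p. Fat markers summed to 2806 to 5131 and 2785 to 3985 nRPM, and striated muscle markers to 536 to 744 and 584 to 712 nRPM, in SS and S2Bb. Neuronal markers summed to 37.6 to 70.6 and 42.1 to 66.9 nRPM, liver markers to 392 to 793 and 502 to 665 nRPM, and epithelial markers to 47.4 to 91.0 and 40.2 to 66.6 nRPM. All 6 tested epithelial members were below 0 (5 of 6 under TMM and RLE factors), with a median of -0.25. No member of these lists had an unadjusted p under 0.05 except miR-143-5p. Of all 484 tested, 11% had such a p, 51.2% were above 0 and 48.8% were below 0.

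Among the 209 tested names of the form miR-n, whose definition the sources used here do not give, limma called none. miR-n21 had the largest difference of all microRNAs tested, at -3.54 ± 0.94 on the log2 scale (SE; adjusted p = 0.0659, limma). It measured 19.7, 46.4, 749.5, 1893 and 15343 nRPM in SS replicates 2 to 6, and 17.7 to 84.9 nRPM in S2Bb. SS replicates 4 to 6 were far above all S2Bb animals, and SS replicates 2 and 3 were within their range. miR-n21 was called under 6 of 27 alternatives. They were edgeR, DESeq2, a mean of at least 10 nRPM, reads thinned to at most 6.56 M, and without SS replicate 2 or 3. miR-n68 differed by -1.18 ± 0.36 (SE; adjusted p = 0.132, limma) and was called by DESeq2. With log2 depth as a covariate limma called miR-n125 and miR-n28, although depth itself differed between the strains. miR-n28 reached 1 nRPM in 7 libraries, 4 of them S2Bb on normal salt. It would not have met the filter of 5 libraries without that group, in which it was high.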

How the data were processed

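Small-RNA libraries were made from 1 microgram of total RNA (integrity number at least 8) and read as 51 bp single ends, with a goal of 30 M reads, per the labels' protocols. Per the submitters' processing notes, edgeR 3.6.8, STAR 2.3.1, bcl2fastq 1.8.4, R 3.2.3 and FastQC were used, in roles the notes do not state. Genome build, annotation and kind of normalization are likewise unstated. The values the authors deposited are a linear normalized signal for 835 names (576 of miRBase form, 259 miR-n) in 34 columns. In each column 100% of values were whole multiples of 1 step (tolerance 1e-06), and dividing by it recovered whole reads.

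Of 36 labelled samples, 2 have no column here, and SS replicate 1 and S2Ba replicate 4 on normal salt hold identical values, so neither was used, which left 32 libraries. The filter kept the 484 microRNAs (275 of miRBase form) that reached 1 nRPM in 5 or more libraries. All 6 groups entered 1 limma 3.58.1 model (R 4.3.3) with an intensity trend on log2(nRPM + 1), a scale that understates differences of rare microRNAs. Calls are at a Benjamini-Hochberg adjusted p under 0.05. The scripts were tested on simulated data. edgeR 4.0.16, DESeq2 1.42.0 and limma-voom on recovered reads were alternatives, with other pseudocounts, filters and scalings. Further alternatives were reads thinned to at most 6.56 M, depth as a covariate and libraries left out. Differences are between mean log2 values and so are not log2 ratios of the printed means.

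The comparison, the lists and the naming rule were chosen with earlier results of these data known. Named were the calls, the 10 smallest p-values in each direction among miRBase names with a mean of at least 10 nRPM, the 2 most abundant members and those at an unadjusted p under 0.05 in each of 22 lists, the same with 3 for chromosome 2, the 5 most abundant microRNAs and 2 miR-n names per direction. Some named microRNAs appear only in the figures.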

Additional observations from a re-analysis of the deposited data

Results flagged for a closer look

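For 2 microRNAs the strain difference itself differed between the diets in limma: by 1.40 on the log2 scale for miR-204-5p and by -3.07 for miR-196b-5p, normal minus high salt. In SS, diet and the order of the animal numbers cannot be told apart.

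Single libraries that stood apart from the rest of their group were looked for in 60 groups of values, 30 microRNAs in both strains. The measure was the gap to the nearest library over the range of the group, in nRPM. The 30 were the 4 calls and the 26 other named microRNAs with an unadjusted p under 0.05. They were chosen on these same values, so the nominal rate of about 1 in 20 is not a chance level here. There were 7 such cases. SS replicate 5 was the highest for miR-193-3p with 27.4 nRPM, against 15.2 to 18.5 nRPM in the other SS animals, and for miR-30e-5p with 1991 nRPM, against 1388 to 1539 nRPM. SS replicate 6, the shallowest library of this comparison, was the highest for let-7b-5p with 2728 nRPM, against 1249 to 1674 nRPM. It was also the highest for miR-n21 with 15343 nRPM, against 19.7 to 1893 nRPM. S2Bb replicate 5 was the highest for miR-31a-3p with 18.7 nRPM, against 11.9 to 13.6 nRPM. SS replicate 2 held 1.99 nRPM of miR-n125 and 1.72 nRPM of miR-n28, which were at 0 or 0.0641 nRPM in the other SS animals analysed.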

How the results depend on the processing

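The count of 4 calls on normal salt became 1 with no filter on low values, 0 with limma-voom and 0 when the other groups were left out of the fit (39 and 43 at an unadjusted p under 0.05), 2 without the 2 shallowest libraries and 11 with DESeq2, and 1 to 8 when 1 library was left out. It stayed 4 without SS high-salt replicate 2, an alternative chosen after seeing the data. It was 3 when the column with 2 labels was counted as SS. Of 27 alternatives, miR-196b-5p was called in 25, miR-204-5p in 17, miR-10b-5p in 13 and miR-196a-5p in 15 of the 26 that tested it. The 4 named calls numbered 1 with no filter, 0 with limma-voom, 0 with only the compared groups, 2 with log2 depth as a covariate, 2 without the shallowest libraries and 1 to 4 with 1 library left out. None of these 4 reversed its direction. Of 26 other named microRNAs with an unadjusted p under 0.05, 9 were called under some alternative, 17 under none, and 0 reversed.

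The 2 interaction calls became 1 with a pseudocount of 5, no filter, only the compared groups, log2 depth as a covariate or without the shallowest libraries, 7 with DESeq2, 4 with limma-voom, and 1 to 3 with 1 library left out. On high salt the count of 0 became 3 with limma-voom, and stayed 0 with 1 library left out. The 17 calls against S2Ba became 28 with TMM factors, 26 with edgeR, 36 with DESeq2, 37 with limma-voom, 41 with log2 depth as a covariate, 48 without the shallowest libraries, 35 without SS high-salt replicate 2, and 8 to 35 with 1 library left out. The cause of these changes was not tested. No paired analysis was possible because the labels give no replicate numbers and the animal numbers are not shared between groups. SS depth, 6.56 M reads at its lowest on normal salt and 2.31 M on high salt, limits what is seen of microRNAs near 1 nRPM.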

Other observations

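A set of 7 miR-n names (n28, n48, n50, n105, n113, n125 and n126), chosen after their values were seen, was present in some animals and at or near 0 in others. Summed over the set, S2Bb replicates 2, 3, 5 and 6 on normal salt held 26.2, 11.7, 26.3 and 41.4 nRPM, and S2Bb replicates 1 and 4 held 0.0256 and 0 nRPM. Among the SS animals analysed on normal salt only replicate 2 carried the set, with 20.7 nRPM, against 0 to 0.0641 nRPM in the others. All 5 S2Ba libraries analysed on normal salt held 0 nRPM. The library found under both an SS and an S2Ba label is not counted in either group. It held 12.6 nRPM of miR-n125 and 8.96 nRPM of miR-n28, so under either label it would be a further carrier. On high salt SS replicate 2 held 19.8 nRPM, S2Bb replicate 6 held 34.2 nRPM, and no other library held more than 5.98 nRPM. In the main comparison miR-n125 and miR-n28 had log2 differences of 1.66 and 1.20, with adjusted p-values in limma of 0.210 and 0.213. Of these, miR-n28 was tested only because of its S2Bb values.

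The ratio of miR-30e-3p to miR-30e-5p was 0.145 ± 0.0423 in SS (SD, n = 5; 0.0909 to 0.206) and 0.0820 ± 0.0182 in S2Bb (SD, n = 6; 0.0594 to 0.102), with SS replicate 5 inside the S2Bb range. The ratio of miR-221-5p to miR-221-3p was 0.0973 ± 0.0356 in SS (SD, n = 5; 0.0384 to 0.134) and 0.139 ± 0.0214 in S2Bb (SD, n = 6; 0.121 to 0.174), so the ranges overlapped, and SS replicate 6 was lowest. These ratios were chosen after the values were seen and were not tested.

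The library deposited under both an SS and an S2Ba label on normal salt held 154 nRPM of miR-196b-5p, 5.36 nRPM of miR-196a-5p, 80185 nRPM of miR-10b-5p and 190 nRPM of miR-204-5p.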
